A study of Mus musculus with 223 samples.

Results

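The 10 genes described here are Peg3, Plagl1, Zim1, Cdkn1c, Ndn, Grb10, Dlk1, Nnat, Impact and Mest, a named set of imprinted genes of growth control. They were taken by name, and all 10 were found among the 43629 genes counted in each cell. The cells were single Htr3a-GFP+ interneurons (INs) sorted from the dissociated whole cortex of mice on a C57BL/6 background, of both sexes, whose transgene placed enhanced green fluorescent protein under the regulatory sequences of Htr3a, the gene for a serotonin receptor subunit. Embryos at E18 gave 82 cells. Pups at P2 gave 22, 31 and 13 cells of types 1, 2 and 3, and pups at P5 gave 34, 19 and 22. Type 1 INs are enriched in Meis2 and type 3 INs in Nr2f2, the types having been assigned by the authors from these same counts, and E18 cells carry no type. The animals of an age were pooled, so each age is 1 sample, cells are not replicates, and every difference between ages or types is a description without a test.

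In an imprinted gene, a mark set in the germ line leaves 1 parental copy active and the other silent. Many imprinted genes act on fetal growth, as brakes when the maternal copy is the active one and as promoters of growth when the paternal copy is. The zinc finger protein Plagl1 regulates other imprinted genes, and the set has been described as a network whose members move together in growing tissues. Peg3, Plagl1, Ndn, Dlk1, Nnat, Impact and Mest are expressed from the paternal copy. Cdkn1c and Zim1 are expressed from the maternal copy, and Grb10 from either, depending on the tissue. Counts of read pairs per gene do not tell the parental copies apart.

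Levels are in RPM, the read pairs on a gene relative to the mapped read pairs of the cell (scaled as in the deposited table). Pooled RPM sums the read pairs of a group before dividing, and its 95% interval is the exact one of a Poisson count. Shares of cells past 10 RPM, the threshold of the study, have exact 95% binomial (Clopper-Pearson) intervals. Amplified copies of a molecule were not told apart, so the Poisson interval understates even the counting error. The binomial interval describes the sampling of cells alone, and neither covers differences between animals or pools. Mapped read pairs per cell ranged from 3707601 to 15840130. Fewer of them fell on genes in P5 type 3, with medians of 7879973 mapped and 2620272 on genes. The medians were 9808331 and 5328259 in P5 type 1 and 9114966 and 5438465 in P5 type 2. RPM divides by mapped read pairs, so levels of P5 type 3 are low in general. Against the other types of P5, its median log2 fold over all genes was -0.78, and -0.09 with total counts as library size. A cell had between 831 and 4886 genes above 10 RPM, with medians of 2496 at E18, 1834, 2482 and 1437 in types 1 to 3 at P2, and 2258, 2738 and 2102 at P5. Prefixes in the labels divide the libraries into sets, here named A, B, C and D, and no source says what they stand for. Set A holds the 66 P2 cells and no others, and age and set cannot be told apart there, while E18 and P5 share sets B (48 and 15 cells), C (9 and 17) and D (25 and 43). P5 cortices were dissected in another medium than E18 and P2 cortices, and treated with Pronase for longer and at room temperature rather than warm, and a difference between E18 and P5 cannot be told apart from that of handling. Htr3a passed 10 RPM in 62 of the 82 E18 cells, and at least 1 of 6 interneuron markers did in 78. Markers of the medial ganglionic eminence (MGE), a source of INs other than the caudal one that gives most Htr3a INs, passed 10 RPM in 62 of 82 E18 cells and in 3 of 75 P5 cells, and markers of excitatory neurons in 16 E18 cells.

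The promoters of Nnat and Peg3 are shown because these genes gave the contrast the set turns on, Nnat being present in nearly every E18 cell and Peg3 in only part of the cells at each age. The sequences are the 300 bases from 250 before to 50 after the start in RefSeq (GRCm38.p6), read 5′ to 3′ on the strand of the gene. Capitals mark CG dinucleotides, the sites of DNA methylation. The Nnat promoter lies at chr2:157559828-157560127 on the plus strand and the Peg3 promoter at chr7:6730370-6730669 on the minus strand.
Nnat: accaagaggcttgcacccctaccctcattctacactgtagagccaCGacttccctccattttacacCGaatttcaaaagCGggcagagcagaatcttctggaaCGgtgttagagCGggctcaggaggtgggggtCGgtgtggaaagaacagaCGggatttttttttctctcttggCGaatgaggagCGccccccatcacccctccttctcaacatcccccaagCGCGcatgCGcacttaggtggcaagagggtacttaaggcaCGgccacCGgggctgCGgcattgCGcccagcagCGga
Peg3: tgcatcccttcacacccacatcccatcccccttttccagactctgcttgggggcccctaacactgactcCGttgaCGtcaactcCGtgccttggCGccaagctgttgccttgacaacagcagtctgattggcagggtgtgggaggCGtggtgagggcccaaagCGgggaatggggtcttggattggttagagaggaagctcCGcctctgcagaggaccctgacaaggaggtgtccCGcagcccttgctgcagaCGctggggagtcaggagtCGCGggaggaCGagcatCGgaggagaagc
These hold 17 and 13 CG dinucleotides, against a median of 7 over 32851 promoters of the same length. The letters GGGGCCCC, searched on both strands as a motif bound by Plagl1, occur once in the Peg3 window, before the start, and in 1.08% of all promoters. They are not in the Nnat window, and the motif GCCATNTT, bound by Yy1, is in neither window and in 6.05% of all promoters. Methylation was not measured in these cells.

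The 10 genes divided by how often they were seen. Of all cells of the series, Nnat passed 10 RPM in 67.7%, Impact in 62.8%, Ndn in 54.3% and Peg3 in 52.02%. Mest passed in 39 cells and Cdkn1c in 28. Grb10 did in 14, Plagl1 in 8, Zim1 in 3 and Dlk1 in 1. Over the series, 4 members were thus common, 2 were found in a minority of cells and 4 were rare, and the rare ones include both the Notch-related ligand Dlk1 and the regulator Plagl1.

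**Figure D1:**
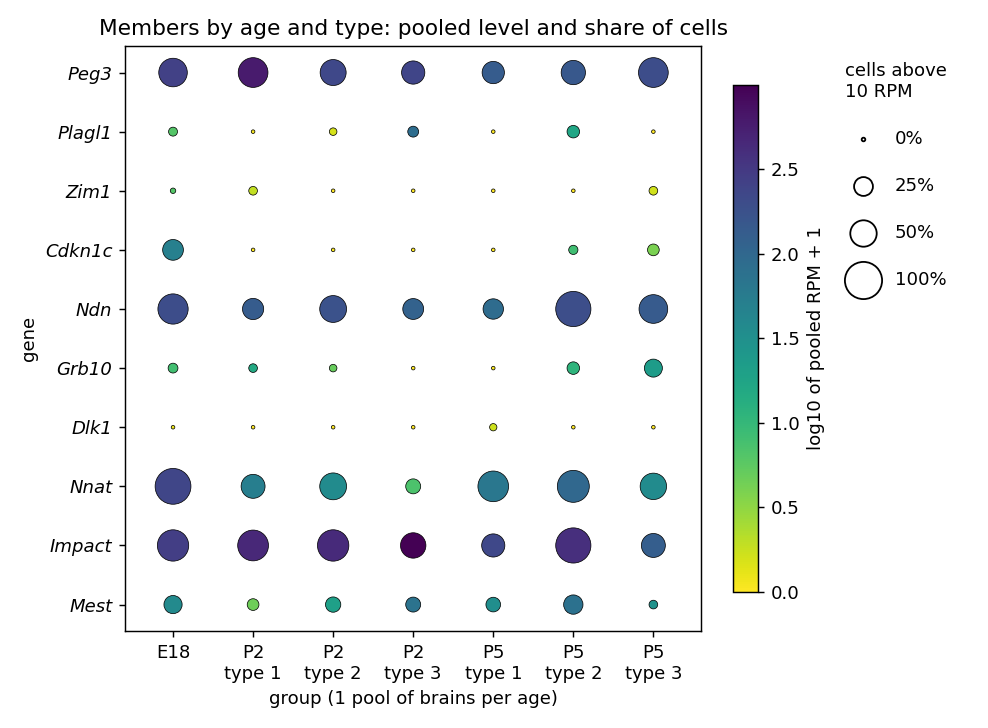
Each circle is 1 gene (rows) in 1 group of cells (columns), its area growing with the percentage of cells above 10 RPM and its color giving log10 of pooled RPM + 1. Nnat is above 10 RPM in 92.7% of E18 cells, Cdkn1c is nearly confined to E18 (25 of its 28 cells), and Dlk1, Zim1 and Plagl1 are rare in each group, as is Grb10 outside P5 type 3 (22.7%).

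Levels of different genes were compared per kilobase of annotated exon. At E18 the order of pooled level was Nnat with 126.2 RPM per kilobase, Impact with 55.6, Ndn with 53.02, Cdkn1c with 24.4, Peg3 with 19.4 and Mest with 9.19, and the other 4 were at or below 0.771. At P5 it was Impact with 47.2, Nnat with 35.8, Ndn with 34.9, Peg3 with 11.6, Mest with 10.8 and Cdkn1c with 1.30. Nnat thus passed from well above Impact to below it, and Cdkn1c from above Peg3 to below Mest. Neighbours such as Impact and Ndn at E18, or Nnat and Ndn at P5, lie close, and without replicate pools their order is not established.

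Cdkn1c, which encodes the cyclin-dependent kinase inhibitor p57, was the member most tied to E18. Its level there was 49.8 RPM (95% interval 49.4 to 50.3), with a lowest cell at 0, a median of 0.0966 and a highest of 406 RPM, and 25 of 82 cells passed 10 RPM (30.5%, 20.8 to 41.6). At P2 none of 66 cells passed 10 RPM, which allows a share of up to 4.55% if a count of 0 is read as at most 3 cells (the exact interval ends at 5.44%), and the pooled level was 0.0427 RPM. At P5 it was 2.65 RPM and 3 of 75 cells passed, 1 of type 2 at 122.7 RPM and 2 of type 3, the higher at 41.8 RPM. E18 cells were therefore split, with a read pair in 42 of 82 cells and a median of 119.99 RPM among the 25 above the threshold, and both postnatal ages held almost none. From E18 to P5 the level fell by 3.80 on the log2 scale of pooled RPM + 1.

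The E18 cells with Cdkn1c were largely those with an MGE marker. Of the 62 E18 cells with Lhx6, Sst, Nkx2-1 or Pvalb above 10 RPM, 24 had Cdkn1c above 10 RPM (38.7%, 26.6 to 51.9), against 1 of the 20 others (5.0%, 0.127 to 24.9). Pooled levels were 62.8 and 8.19 RPM. Neither Nkx2-1 nor Pvalb passed 10 RPM in any E18 cell, so the marked cells there were those with Lhx6 or Sst. Taken singly, Lhx6, a transcription factor of MGE-derived INs, marked 40 E18 cells of which 18 had Cdkn1c, against 7 of the 42 others. The neuropeptide gene Sst marked 52 of which 21 had it, against 4 of 30. Within library set B, 14 of 36 E18 cells with a marker had Cdkn1c, against 1 of 12 without. In sets C (3 of 7 against 0 of 2) and D (7 of 19 against 0 of 6), too few cells lacked a marker to show a split. At P2, 14 cells had an MGE marker and none had Cdkn1c above 10 RPM, and at P5 none of the 3 such cells did. Other members also differed in pooled level between E18 cells with and without an MGE marker. Peg3 had 207.8 against 421.4 RPM, Ndn 160.96 against 307.95 and Nnat 218.2 against 271.2. Impact and Mest went the other way, with 299.02 against 239.9 RPM and 40.5 against 22.6 RPM. Mest passed 10 RPM in 5 of 40 E18 cells with Lhx6 against 14 of 42 others, and in 13 of 52 with Sst against 6 of 30.

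MGE markers move with age here, and their part in the difference of Cdkn1c between E18 and P5 was not tested. Without cells that had an MGE marker, Cdkn1c went from 8.19 RPM at E18 to 2.78 at P5, a log2 fold of -1.28 in place of -3.80. Without cells that had an MGE or an excitatory marker, 14 E18 cells remained, none with Cdkn1c above 10 RPM (0.242 RPM), and the direction turned, with 2.81 RPM at P5. The P5 level rests on 3 cells, 1 of which gave 69.96% of the read pairs, and was 0.857 RPM without it. These cell subsets were chosen after the data had been seen. The exons of Cdkn1c share 30.7% of their bases with the antisense gene Gm44732, which has no row in the table, and since no source states whether counting used strand, read pairs of the pair cannot be told apart.

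**Figure D2:**
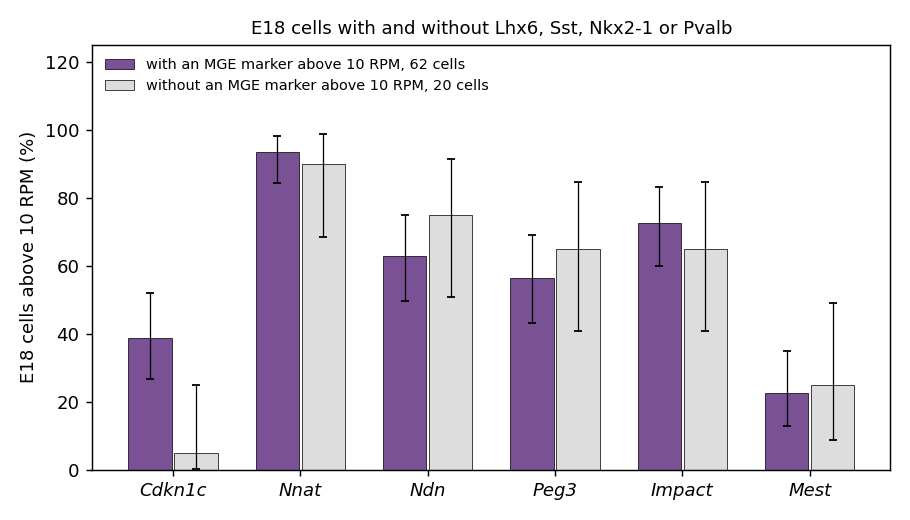
Bars give the percentage of E18 cells above 10 RPM for 6 members, in the 62 cells with and the 20 cells without an MGE marker above 10 RPM, with exact 95% binomial intervals. Cdkn1c was above 10 RPM in 38.7% against 5.0% of cells, while the intervals of these shares overlap widely for the other 5 members. Pooled levels, which are not shown here, also differed for other members.

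Ndn encodes Necdin, a MAGE family protein of postmitotic neurons that holds back the cell cycle. At E18 it reached 195.8 RPM (194.9 to 196.8), from 0 through a median of 32.3 to 1592 RPM, with 54 of 82 cells above 10 RPM (65.9%, 54.6 to 75.97). At P2 the levels were 136.8, 175.1 and 116.5 RPM in types 1 to 3, with 7 of 22, 16 of 31 and 4 of 13 cells. At P5 they were 89.1, 192.1 and 140.8 RPM, with 10 of 34, 17 of 19 and 13 of 22 cells. The highest cell gave 51.3% of the Ndn read pairs of P2 type 1 and 89.9% of those of P2 type 3. Without it these groups had 69.9 and 12.98 RPM. Single cells of every group overlapped, from 0 to at least 761 RPM, and P5 type 2 stood out by its share of 89.5% (66.9 to 98.7) against 29.4% (15.1 to 47.5) in P5 type 1. Its cells were of middling level, with a median of 119.8 RPM, whereas type 1 had a median of 1.00 RPM and a highest cell of 765 RPM.

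Among other genes of cell-cycle entry, 10 of 16 listed were above 10 RPM in over 5% of E18 and P5 cells, 1 was at least 2-fold higher at P5 and 4 at least 2-fold lower, against 11.9% and 19.6% of all genes tested. Ccnd2, a D-type cyclin, had 94.3 RPM at E18 and 667, 417 and 70.4 RPM in P5 types 1 to 3. Its partner kinase Cdk4 was lower in each P5 type, with 243 RPM at E18 and 136.1, 155.7 and 8.31 RPM at P5. Of the paralogues of Cdkn1c, Cdkn1b, which encodes p27, was present at both ages with 47.1 RPM at E18 and 86.7, 81.02 and 23.1 RPM at P5, and Cdkn1a, which encodes p21, went from 25.3 RPM to at most 0.763. Maged1, a relative of Ndn, was higher than Ndn in RPM of every group, from 398 to 879.6 RPM.

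Nnat encodes neuronatin, a small membrane proteolipid of the endoplasmic reticulum found in developing neurons. At E18 it was the one member seen in nearly all cells, 76 of 82 (92.7%, 84.8 to 97.3), with a pooled level of 231 RPM (229.7 to 232), a lowest cell at 0, a median of 182.5 and a highest of 1455 RPM. At P2 the levels were 52.4, 35.9 and 6.12 RPM in types 1 to 3, with medians of 6.01, 11.9 and 0.154 RPM, and 9 of 22, 16 of 31 and 2 of 13 cells above 10 RPM. At P5 they were 63.2, 98.1 and 35.4 RPM, with medians of 35.5, 87.9 and 9.42 RPM, and 23 of 34, 14 of 19 and 11 of 22 cells. E18 cells were higher as a body than any postnatal group, though the ranges overlapped, since 7 of 66 P2 cells and 17 of 75 P5 cells exceeded 100 RPM against 61 of 82 at E18. By pooled level P2 was the lowest age, at 37.8 RPM over its 66 cells, and type 3 had the lowest level of the types at both postnatal ages.

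From E18 to P5, Nnat fell by 1.80 on the log2 scale, from 231 to 65.5 RPM. It was lower in each library set, from 239 to 49.8 RPM in set B, from 204.02 to 28.2 in set C and from 224 to 87.4 in set D. Unlike Cdkn1c, it did not follow the MGE markers at E18, with 58 of 62 cells with a marker and 18 of 20 cells without one above 10 RPM, and the pooled level without them was 271 RPM at E18 and 54.3 at P5. At E18 its level correlated at 0.31 with the summed interneuron markers and at -0.32 with those of excitatory neurons over 82 cells, which share depth and pool. Nnat lies in an intron of Blcap, another imprinted gene, which was at 79.9 RPM at E18 and 62.2, 147.7 and 68.99 RPM at P5. An exon of Nnat shares 87 bases with Gm23134, a small RNA gene of the opposite strand.

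**Figure D3:**
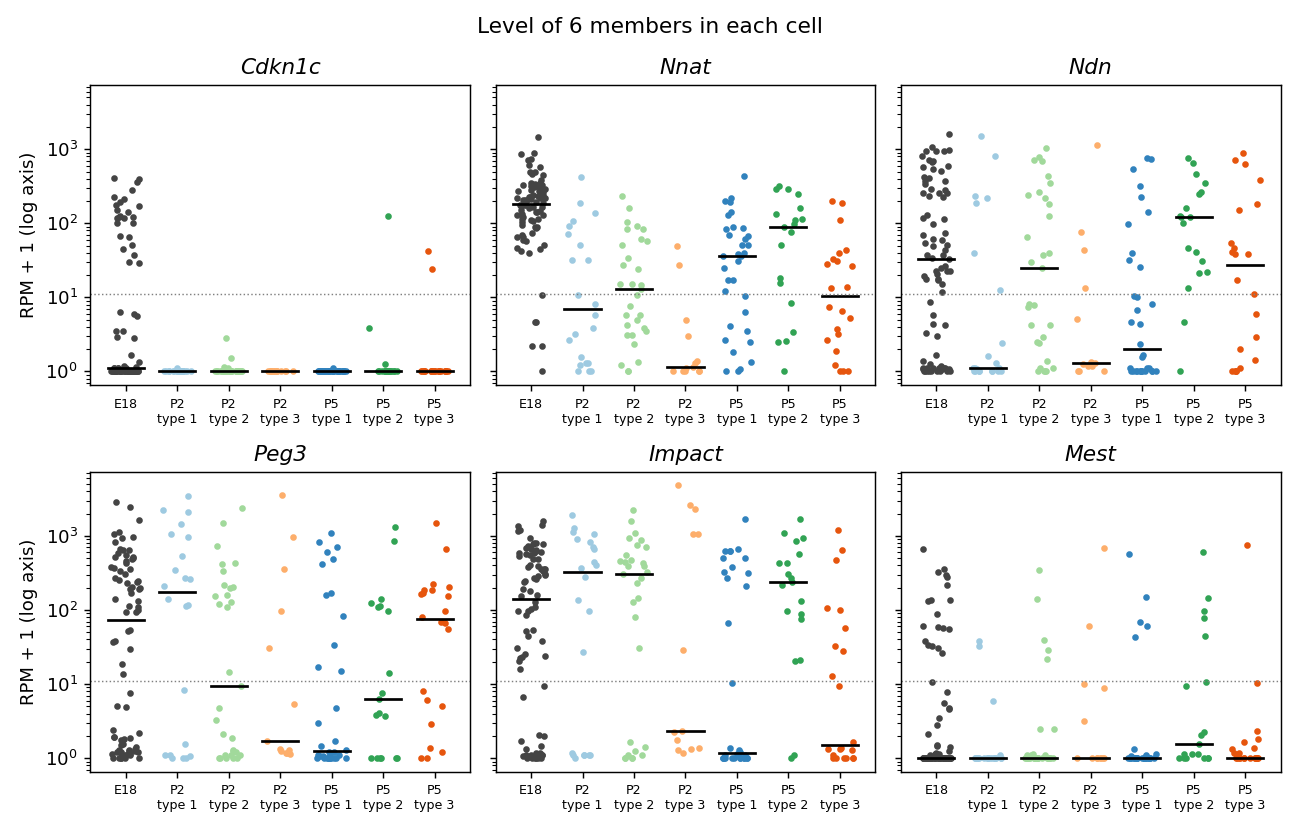
Each point is 1 cell, with RPM + 1 on a log axis, for 6 members in 7 groups. Black bars are group medians and the dotted line marks 10 RPM. Nnat forms a single high cluster at E18 with a median of 182.5 RPM, while Peg3, Ndn and Impact have cells near 0 and cells above 100 RPM in the groups. The exception is Ndn in P2 type 3, where the highest cell has 1140 RPM and the second 76.4 RPM.

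Peg3 encodes a large zinc finger protein of the p53 and TNF pathways that is strongly expressed in brain. Its level was 258 RPM at E18 (257 to 259.6), from 0 through a median of 72.6 to 2855 RPM, with 48 of 82 cells above 10 RPM (58.5%, 47.1 to 69.3). At P2 it was 598, 221.4 and 243 RPM in types 1 to 3, with 14 of 22, 15 of 31 and 5 of 13 cells. At P5 it was 136.4, 151.3 and 196.4 RPM, with 12 of 34, 8 of 19 and 14 of 22 cells. The highest level was in P2 type 1, which remained the highest at 468 RPM without its top cell, and a single cell of 3560 RPM gave 65.2% of the read pairs of P2 type 3. Cells fell into those with almost none and those with much, since 85 of all cells were at or below 1 RPM, 22 between 1 and 10 RPM and 92 above 100 RPM.

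The rare zinc finger genes gave no group level that rested on more than a few cells. Zim1, the maternally expressed neighbour of Peg3 (chr7:6671269-6696450 against chr7:6703892-6730431, both on the minus strand of GRCm38), passed 10 RPM in 1 E18 cell at 713 RPM, 1 P2 type 1 cell at 19.2 RPM and 1 P5 type 3 cell at 11.6 RPM. Peg3 was also above 10 RPM in 1 of these 3 cells. Plagl1 passed in 4 E18 cells, up to 278 RPM, in 1 type 2 and 1 type 3 cell at P2, and in 2 type 2 cells at P5. Both P5 cells had at least 3 astrocyte or radial glia markers above 10 RPM, and P5 type 2 without its 3 such cells had no Plagl1 read pair. The type 3 cell at P2 had 879 RPM and gave 99.9% of that group's read pairs, so the level of 84.95 RPM there stands for 1 cell. No Plagl1 read pair was found in P5 type 3.

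Grb10 encodes an adaptor that binds the insulin and IGF1 receptors and damps their signal. It passed 10 RPM in 5 of 82 E18 cells (7.00 RPM, highest 255 RPM), in 1, 1 and 0 cells of P2 types 1 to 3, and in 0 of 34, 2 of 19 and 5 of 22 cells of P5 types 1 to 3. Pooled levels at P5 were 0.0838, 10.1 and 21.8 RPM. Type 3 was thus the group with the largest share, 22.7% (7.82 to 45.4), and 0 of 34 type 1 cells allows a share of up to 8.82% by the same limit of 3 cells. Without the highest cell the type 3 level was 7.84 RPM and the type 2 level 1.12 RPM, and type 2 had 1.27 RPM without its 3 cells with at least 3 astrocyte or radial glia markers. Of 20 listed genes of insulin and IGF signalling, 13 passed the filter, with 2 at least 2-fold higher and 2 at least 2-fold lower at P5 than at E18, near the background of 11.9% and 19.6% of genes. The ligand gene Igf1 was at 91.03 RPM at E18 and at 35.1, 473 and 346 RPM in P5 types 1 to 3, and its receptor gene Igf1r at 72.95 RPM and at 119.3, 170.9 and 25.9 RPM. The downstream genes Pik3r1 and Pik3ca, which encode subunits of a lipid kinase, also exceeded 100 RPM in some group.

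Dlk1 encodes a membrane protein related to the Notch ligands. It was close to absent, with read pairs in 6 cells of the series and 1 cell above 10 RPM, a P5 type 1 cell at 23.4 RPM, and no group above 0.682 RPM. The other protein-coding genes listed from its domain were also at or near 0 at E18, Dio3 with no read pair in any group and Rtl1 with 0.227 RPM at E18 and 12.6, 12.2 and 19.2 RPM in P5 types 1 to 3. Meg3, the noncoding RNA expressed from the other parental copy of that domain, was at 765 RPM at E18 and at 2638, 2197 and 3902 RPM in P5 types 1 to 3, and Rian, a further noncoding RNA of the domain, at 293 RPM and at 310.2, 352 and 389.7 RPM. Of 14 listed Notch genes 4 passed the filter, 2 at least 2-fold higher at P5 and none lower (background 11.9% and 19.6%), and none reached 100 RPM in a group.

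Impact encodes an inhibitor of the kinase GCN2, which it keeps from its activator and so from slowing translation. It was common at each age, with 285 RPM at E18 (284 to 286), from 0 through a median of 139.4 to 1596 RPM, and 58 of 82 cells above 10 RPM (70.7%, 59.7 to 80.3). At P2 the levels were 459, 431 and 991 RPM in types 1 to 3, with 15 of 22, 22 of 31 and 6 of 13 cells. At P5 they were 222.6, 386 and 127.4 RPM, with 13 of 34, 17 of 19 and 9 of 22 cells. P2 type 3 had the highest pooled level but a median of 1.32 RPM, below the medians of 322 and 302 RPM in the other types, because a few cells reached up to 4829 RPM. P5 type 2 again had the largest share, 89.5%, against 38.2% in type 1 and 40.9% in type 3. Types were spread unequally over the library sets at P5, with 11, 11 and 12 type 1 cells, 2, 3 and 14 type 2 cells and 2, 3 and 17 type 3 cells in sets B, C and D. Within set D, Impact passed in 7 of 12, 13 of 14 and 7 of 17 cells of types 1 to 3, and Ndn in 4 of 12, 13 of 14 and 9 of 17.

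Impact also differed between library sets at P5. It passed 10 RPM in 2 of 15 cells of set B, 10 of 17 of set C and 27 of 43 of set D, with 52.1, 218.4 and 325 RPM. At E18 the same sets gave 33 of 48, 6 of 9 and 19 of 25 cells, and 301, 295 and 251 RPM. From E18 to P5 the level therefore fell by 2.51 on the log2 scale in set B and was higher by 0.37 in set D. These folds compare E18 with different mixes of P5 types, since type 1 gave 11 of 15 P5 cells in set B and 12 of 43 in set D, and in type 1 alone Impact passed in 1 of 11 cells of set B and 7 of 12 of set D. Of 12 listed genes of GCN2 and the stress response 11 are in the table and 10 passed the filter, with none at least 2-fold higher and 3 at least 2-fold lower at P5 (background 11.9% and 19.6%). Atf4, the main effector, was at 202.8 RPM at E18 and at 211.7, 154.5 and 84.01 RPM in P5 types 1 to 3. Ppp1r15a, which reverses the response, went from 75.4 RPM to 32.4, 10.6 and 0.702 RPM. Eif2s1, which encodes the factor GCN2 phosphorylates, was at 96.97 RPM and at 119.9, 47.2 and 30.3 RPM.

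Mest encodes an enzyme of the hydrolase family, known from fetal mesoderm and fat. It passed 10 RPM in 19 of 82 E18 cells (23.2%, 14.6 to 33.8; 36.3 RPM, highest 669 RPM), in 2, 5 and 2 cells of P2 types 1 to 3 and in 5, 5 and 1 cells of P5 types 1 to 3. Pooled levels were 3.58, 19.3 and 71.3 RPM at P2 and 32.7, 73.6 and 29.0 RPM at P5. A single cell gave 92.5% of the read pairs of P2 type 3 and 97.99% of those of P5 type 3, and without the top cell these groups had 5.91 and 0.604 RPM. The top cell gave 61.9% in P2 type 2, 70.7% in P5 type 1 and 70.6% in P5 type 2. Without it they had 7.63, 9.98 and 23.7 RPM. The library sets moved in opposite ways, from 11.0 RPM at E18 to 153.3 at P5 in set B and from 86.1 to 11.7 in set D. Exons of Mest share 912 bases, 23.1% of their length, with Copg2 on the opposite strand.

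Over the set, 7 of the 10 members passed 10 RPM in over 5% of E18 and P5 cells and entered the comparison of pooled levels, while Plagl1, Dlk1 and Zim1 did not. None of the 7 was at least 2-fold higher at P5, where 11.9% of 9808 genes were, and 2 were at least 2-fold lower, Cdkn1c and Nnat, where 19.6% were. The count of 2 in 7 is close to the background in pooled level. On the mean of log2(RPM + 1) over cells, which weights each cell equally, 4 of the 7 were past 2-fold in either direction, all lower, namely Cdkn1c (-2.05), Nnat (-2.80), Peg3 (-1.20) and Impact (-1.49), where 11.96% of genes were, these genes not being matched to the members in level. The median log2 fold over all genes was -0.17. Peg3 fell by 0.73 and Ndn by 0.60, and both were lower at P5 in each library set. Peg3 went from 163.3 to 100.4 RPM in set B, from 520.1 to 176.06 in set C and from 359 to 167.2 in set D, and Ndn from 166.9 to 98.7, from 286 to 181.6 and from 222.8 to 117.9. Impact (-0.24), Grb10 (0.18) and Mest (0.22) lay near 0, with sets that differed in the direction of pooled level, though the share of cells with Impact was lower at P5 in each set.

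**Figure D4:**
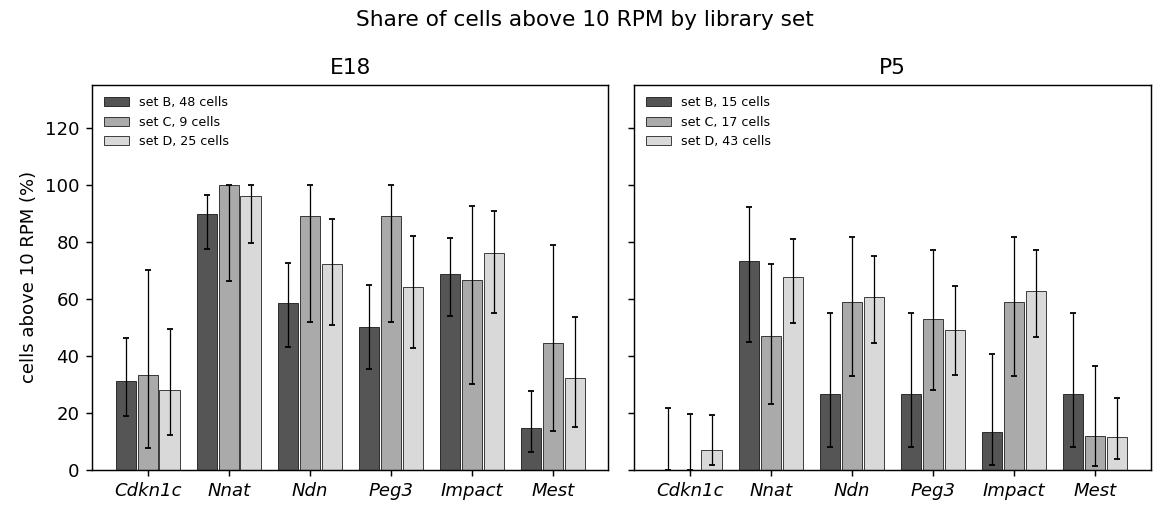
Bars give the percentage of cells above 10 RPM for 6 members at E18 (left) and P5 (right) in library sets B, C and D, with exact 95% binomial intervals. Cdkn1c, Nnat, Ndn, Peg3 and Impact have lower shares at P5 than at E18 in each set. Impact goes from 68.8% to 13.3% in set B, from 66.7% to 58.8% in set C and from 76% to 62.8% in set D.

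Other imprinted genes moved in both directions. Of 45 listed, 44 are in the table and 25 passed the filter, with 4 at least 2-fold higher and 5 at least 2-fold lower at P5 (background 11.9% and 19.6%), and a median log2 fold of 0.11. Meg3 was higher by 1.89 on the log2 scale. Nap1l5, a histone chaperone relative, fell by 1.94, with 148.6 RPM at E18 and 36.6, 61.4 and 15.7 RPM in P5 types 1 to 3. Snrpn, of the same domain as Ndn, was at 127.6 RPM at E18 and 96.7, 103.6 and 10.5 RPM at P5. Ube3a, expressed from the maternal copy in neurons, was at 91.8 RPM and at 92.2, 97.5 and 206.6 RPM. Kcnq1ot1, the noncoding RNA of the domain that holds Cdkn1c, was at 322 RPM at E18 and 256, 317 and 929.8 RPM at P5, above 10 RPM in each cell of these groups, with Cdkn1c or without. Inpp5f, a phosphatase gene, was the highest of the list at E18, with 1492 RPM, and Ppp1r9a, which encodes an actin-binding protein, was at 114.1 RPM. Of the paralogues, 5 of 9 passed the filter, with none higher and 3 lower (background 11.9% and 19.6%).

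Between types of an age, the share of members past 2-fold in pooled level was below that of genes in general. This order was not stable. It turned in P2 type 1 with TMM factors or DESeq2 size factors as library size (3 of 5 members against 51.5% of genes with either). Without the highest cell it turned in P2 type 1 (3 of 5, 56.7%), P5 type 1 (3 of 6, 49.4%) and P5 type 3 (4 of 6, 65.4%). It also turned in some types without the filter or within single library sets, and in every type on the mean of log2(RPM + 1). With so few members, no order is established. At P2, 5 members passed the filter. Peg3 (1.40) and Mest (-2.78) were past 2-fold in type 1, where 51.3% of 8400 genes were in either direction. Peg3 (-1.17) was in type 2, with 48% of genes. Nnat (-2.62), Impact (1.16) and Mest (2.40) were in type 3, with 69.4% of genes and a median over all genes of -1.26. At P5, 6 members passed. Grb10 (-3.95) was past 2-fold in type 1, with 47.3% of 9675 genes. Impact (1.01) and Mest (1.20) were in type 2, with 45.3%, and Grb10 (2.32), Nnat (-1.07) and Impact (-1.13) were in type 3, with 60.4% and a median over all genes of -0.78, so that the folds of Nnat and Impact there lie close to the shift of genes in general. The medians in types 1 and 2 were -0.25 and 0.19 at P2 and 0.04 and 0.03 at P5. On the mean of log2(RPM + 1), 2, 2 and 4 of 5 members were past 2-fold in P2 types 1 to 3, with 16.8%, 22.02% and 29.95% of genes, and 3, 4 and 4 of 6 in P5 types 1 to 3, with 18.04%, 24.6% and 27.9%. On that scale, Impact in P2 type 3 turned from 1.16 to -1.18. Ndn in P5 type 2 was higher by 0.85 in pooled level, short of 2-fold, so its difference between types lay in the share of cells more than in the pooled level.

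Cells also differed in how many of the 10 members they held. The number above 10 RPM per cell averaged 3.54 ± 1.18 at E18 (SD over 82 cells), with a range of 1 to 6, and 65 of 82 cells had at least 3. It averaged 2.23 ± 1.11, 2.45 ± 1.15 and 1.54 ± 1.27 in P2 types 1 to 3 and 1.88 ± 1.04, 3.47 ± 0.905 and 2.55 ± 1.44 in P5 types 1 to 3. P5 type 2 INs were thus near E18 cells, with at least 3 members in 16 of 19 cells against 10 of 34 in P5 type 1. P5 type 2 also had the highest median number of genes above 10 RPM, 2738, and the part of that in the members' count was not tested. At least 3 of 6 astrocyte or radial glia markers passed 10 RPM in 3 of its 19 cells, and without them 13 of 16 cells had at least 3 members, with Ndn in 14 and Impact in 15 of the 16. No cell of the series had more than 6 members, and 4 had 6.

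Co-variation over single cells was weak. With group means removed, the 15 pairs of the 6 members above 10 RPM in at least 10% of cells had Pearson r of log2(RPM + 1) from -0.088 (Cdkn1c and Mest) to 0.10 (Nnat and Mest), with a median of 0.031 over all cells, the pairs of Cdkn1c resting mostly on E18. The points share libraries, depth and pools, and no pair passed 0.2 in size. With group means kept, Cdkn1c and Nnat gave 0.30, the only pair past 0.2, and both are highest at E18. Within E18 alone this pair had 23 cells with both above 10 RPM, where the product of the shares gives 23.2, and Ndn and Nnat had 50 against 50.05. Peg3 and Ndn were both above 10 RPM in 63 cells, where the product of the overall shares gives 62.9. Other pairs lay further from the product, in both directions. Ndn and Impact were both above 10 RPM in 85 cells of the series against 75.96. Peg3 and Mest were in 15 against 11.1 at E18 and in 2 against 4.99 at P5.

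**Figure D5:**
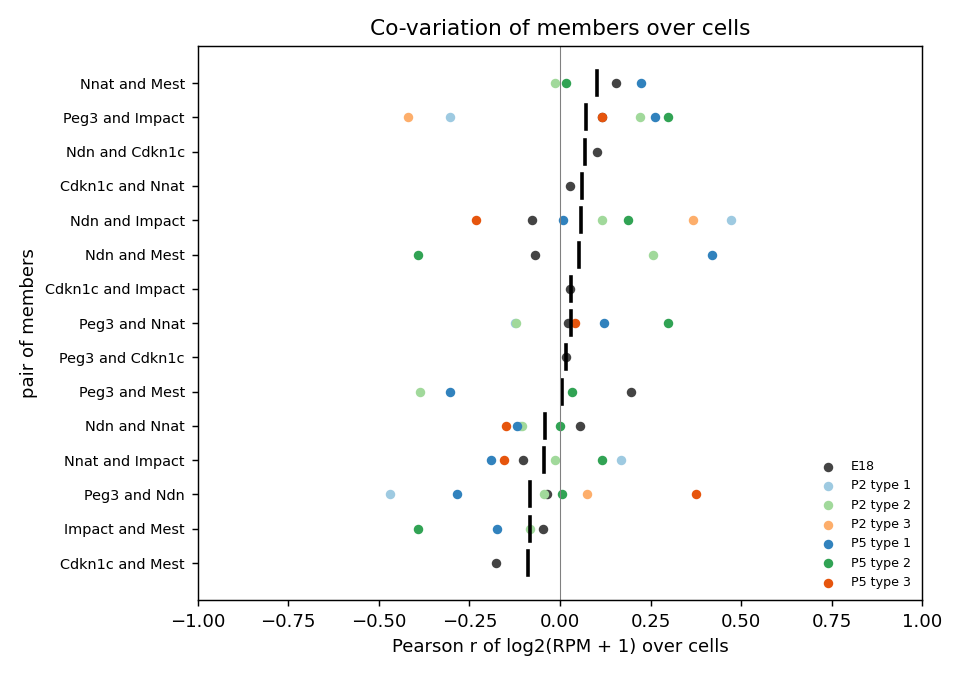
Points are Pearson r of log2(RPM + 1) over the cells of each group in which both members had at least 3 cells above 10 RPM, for 15 pairs of members, and black bars are r over all cells with group means removed. Black bars stay between -0.088 and 0.10, and points of single groups spread to both sides of 0 for 9 of the 10 pairs without Cdkn1c, which has points at E18 alone.

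Within groups of 13 to 34 cells r ranged from -0.47 (Peg3 and Ndn in P2 type 1) to 0.47 (Ndn and Impact in P2 type 1), and within the 82 E18 cells from -0.18 to 0.20. Within a group r is given only where both members had at least 3 cells above 10 RPM, a limit set after the values were seen, which leaves 60 values, and the 5 pairs of Cdkn1c at E18 alone. Of the other 10 pairs, Impact and Mest were below 0 in each of their 4 groups, from -0.39 to -0.05, and 9 had both signs. Peg3 (0.26) and Ndn (0.24) correlated more with the number of genes above 10 RPM in the cell than with any other member. The best other member ranked 670th for Nnat (Mest) and 885th for Mest (Nnat) among 6769 genes ordered by likeness, and lower for the other 4. The 3 genes most like Cdkn1c over all cells were Dusp26 (0.30), Rgs17 (0.28) and Ikzf4 (0.28). For Nnat they were Cers5 (0.25), Rnf5 (0.24) and Gm42418 (0.24), and for Peg3 Fgfr1op (0.29), Srsf1 (0.26) and Cript (0.25). For Ndn they were Hsp90aa1 (0.27), Sept7 (0.26) and Ppp1r7 (0.26), for Impact Ndufs8 (0.30), Gm29084 (0.28) and Rad51ap1 (0.27), and for Mest Nrcam (0.30), Lsm1 (0.29) and Ap3b2 (0.27). In sparse counts such values are weak.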

How the data were processed

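RNA of single sorted cells was captured and amplified on a C1 chip and sequenced as read pairs. The authors aligned them to GRCm38 with TopHat2, counted them per gene with HTSeq 0.6.1 and deposited the raw count of each gene per cell, with the factor by which each cell's counts become RPM. Molecular identifiers are not mentioned and the strand setting of counting is not given in the sources used here. E18 and P2 cortices were dissected in another medium than P5 cortices and dissociated at another temperature and for another time.

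Mapped read pairs came from the inverse of that factor. GENCODE names matched 42462 of 43629 gene identifiers, and exon length is the union of annotated exons. Folds are log2 differences of pooled RPM + 1. Genes past 10 RPM in over 5% of the compared cells were the background, and 2-fold was the limit named. With 1 pool per age no test was made. Members and lists were chosen with earlier results of these data known. All members are named, with the 3 genes most like each common member and genes of the lists above 100 RPM in a group, except for an item not reported here, and Cdkn1a and Cdkn1b, named besides, were chosen after their values were seen. Alternatives changed the threshold, depth, scale, pseudocount, library size (total counts, edgeR TMM or DESeq2 size factors of pooled counts), filter, top cells and library sets. Steps were tested on simulated data. Scripts ran in Python 3.11.15 (scipy 1.17.1, pandas 2.3.3, numpy 2.4.6 and, for plots, matplotlib 3.10.9), and in R 4.3.3 with DESeq2 1.42.0 and edgeR 4.0.16.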

Additional observations from a re-analysis of the deposited data

Results flagged for a closer look

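Grb10 and Mest differed between types in their direction from P2 to P5. Grb10 fell by 3.85 on the log2 scale in type 1 and was higher by 1.14 in type 2 and by 4.49 in type 3. Without the highest cell of each group these values were 0.0017, 1.07 and 3.14, so the fall in type 1 rested on 1 P2 cell. Mest was higher by 2.88 in type 1 and 1.87 in type 2 and lower in type 3 (-1.27), and without the highest cells by 1.96, 1.52 and -2.11. The difference between types was not tested, since each age is 1 pool, and age P2 and library set A cannot be told apart.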

How the results depend on the processing

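From E18 to P5, Cdkn1c and Nnat were at least 2-fold lower in pooled level under every alternative run, except that Cdkn1c was higher by 1.62 without cells that had an MGE or excitatory marker. The count of members past 2-fold was 2, and it was 4 on the mean of log2(RPM + 1), 5, 5 and 4 within library sets B, C and D, 4 without cells with an MGE marker, 3 without those with an excitatory marker, 5 without those with an MGE or excitatory marker and 6 without those with a cycling marker. The share of all genes past 2-fold was 31.5% in pooled level and, in the order of these alternatives, 11.96%, 54.5%, 57.1%, 44.8%, 46.5%, 34.6%, 57.7% and 48.3%, against 7 members. These cell subsets were chosen after seeing the data.

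Between types, counts moved with single cells and scale. Without the filter they were 4, 3 and 5 in P2 types 1 to 3 and 3 and 4 in P5 types 1 and 2, of 10 members, where 37.7%, 36.1%, 45.4%, 34.7% and 33.4% of genes with a read pair were past 2-fold. On the mean of log2(RPM + 1) they were 2 in P2 type 2 and 3 and 4 in P5 types 1 and 2. With total counts as library size they were 2 and 0 in P5 types 1 and 2, with TMM factors 1 in P5 types 2 and 3, with DESeq2 size factors 1 in P5 type 3, and with a pseudocount of 10 RPM 1 in P5 type 2. In that order the shares of genes were 47.9%, 47.3%, 45.3%, 59.7%, 59.7% and 27.6%. With TMM factors and with DESeq2 size factors P2 type 1 had 3 of 5 members, against 51.5% of genes with each. Without the highest cell of each group they were 3 and 0 in P5 types 1 and 2, with 49.4% and 47.6% of genes, and 3 of 5 in P2 type 1 and 4 of 6 in P5 type 3, with 56.7% and 65.4%. Within sets B, C and D they were 4, 3 and 2 in P5 type 1 and 4, 6 and 1 in P5 type 2, and 6 within set C in P5 type 3, where 52.6% to 71.6% of genes were past 2-fold, and types 2 and 3 had 2 cells each in set B and 3 each in set C. Impact reversed in P2 type 3 on the mean of log2(RPM + 1) (-1.18) and in P5 type 2 within set B (-0.94, from 2 cells). The cause was not tested.

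Counting any cell with at least 1 read pair raised the members per cell to 4.99 at E18, to 3.77, 4.19 and 4.00 in P2 types 1 to 3 and to 3.50, 4.79 and 4.18 in P5 types 1 to 3, and thresholds of 1 and 50 RPM or thinning to the lowest depth moved no mean by more than its SD over cells. Pooled levels were less stable than their Poisson intervals. Without the highest cell of each group, 63 levels of a gene in a group left their interval and 7 did not. With total counts as library size, 56 left it and 14 did not. The median correlation between members stayed within the SD over pairs in all 6 alternatives. No paired analysis was possible because the cell numbers of different groups name unrelated cells. Values within the library sets that E18 and P5 share stand beside the pooled ones.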
